A study of Homo sapiens with 6 samples.

Results

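A set of 10 genes of extracellular ATP and adenosine handling, of the 20345 genes in the deposited table, was followed with and without knockdown of LRRC8A in SW1990, an established cell line from a human pancreatic adenocarcinoma. They were taken by gene symbol, and the choice was made with earlier results of these data known. The set holds the ecto-nucleotidases NT5E, ENTPD2, ENTPD3 and ENTPD8 and the adenosine-consuming enzymes ADA and ADK. It also holds the receptors ADORA1, ADORA2B and P2RY2, and the channel PANX1. The control group held 3 libraries from cells with a non-targeting shRNA, and the other group 3 libraries from cells with 1 shRNA against LRRC8A. All 6 came from lentivirally transduced, puromycin-selected stable lines that carried the pLKO.1 vector. The series calls the 3 libraries of a group biological replicates. If they came from 1 stable line, p-values describe how cultures of that line vary, and separate transductions could vary more.

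Cells release ATP through channels, among them the volume-regulated anion channel (VRAC), of which LRRC8A is the obligatory subunit, and the pannexin channel formed by PANX1. Outside the cell, ectonucleoside triphosphate diphosphohydrolases (the ENTPD family) cut ATP and ADP down to AMP, and NT5E (CD73), a membrane-anchored 5′-nucleotidase, converts AMP to adenosine. Adenosine acts on G protein-coupled receptors and is removed by deamination (ADA) or, once inside the cell, by phosphorylation (ADK). In pancreatic tumours the pathway is known for the NT5E step, since adenosine dampens immune cells.

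Library totals ran from 37052641 to 42937612 counts, and 15385 to 15593 genes had a count. LRRC8A itself fell from 75.6 ± 5.01 to 40.1 ± 2.03 CPM, which are counts over TMM-adjusted library size (SD, n = 3 each). Its log2 fold change was -0.92 (SE 0.06, edgeR adjusted p = 1.46e-08). The cells are labelled pancreatic cancer cells, and all 10 ductal epithelium markers had a mean of at least 1 FPKM, the length- and depth-scaled unit of the deposited table. Of 10 fibroblast markers, DCN, COL1A2 and THY1 were listed at 0, and the 10 markers summed to 7.09 to 9.56 FPKM, most of it ACTA2. The 10 leukocyte markers summed to 1.53 to 2.00 FPKM, most of it the monocyte marker CD14 (1.56 FPKM), with PTPRC, the pan-leukocyte marker, at 0.002 FPKM and the T cell markers CD3E and CD2 at 0.

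NT5E and ENTPD2 carry the changes described below, and ADORA2B was the most abundant of the 3 receptors. Their promoters, 250 bases before to 50 bases after the RefSeq start (GRCh38.p14, gene strand), are shown to let a reader compare the sequence context of genes that moved and one that did not pass. Capitals mark matches, on either strand, to GGGCGG (Sp1), CAGAC (SMAD), TGACGTCA and its shorter core TGACG (cAMP response element), ACGTG (hypoxia response element core), CTTTGA (TCF/LEF), GGAATG (TEAD) or TGANTCA (AP-1).
NT5E (chr6:85449833-85450132, plus strand): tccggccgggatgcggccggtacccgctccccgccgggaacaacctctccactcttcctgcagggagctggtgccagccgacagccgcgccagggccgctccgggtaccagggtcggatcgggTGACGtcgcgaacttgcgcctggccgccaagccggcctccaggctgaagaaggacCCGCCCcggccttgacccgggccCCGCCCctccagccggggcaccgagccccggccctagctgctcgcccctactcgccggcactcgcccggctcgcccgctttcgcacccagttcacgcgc
ENTPD2 (chr9:137054012-137054311, minus strand): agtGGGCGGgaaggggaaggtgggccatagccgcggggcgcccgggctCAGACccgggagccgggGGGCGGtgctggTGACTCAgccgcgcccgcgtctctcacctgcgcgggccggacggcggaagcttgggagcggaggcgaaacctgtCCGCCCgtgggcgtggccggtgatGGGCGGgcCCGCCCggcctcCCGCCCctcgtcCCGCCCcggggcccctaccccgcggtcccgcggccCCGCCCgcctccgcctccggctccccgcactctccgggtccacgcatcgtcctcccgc
ADORA2B (chr17:15944880-15945179, plus strand): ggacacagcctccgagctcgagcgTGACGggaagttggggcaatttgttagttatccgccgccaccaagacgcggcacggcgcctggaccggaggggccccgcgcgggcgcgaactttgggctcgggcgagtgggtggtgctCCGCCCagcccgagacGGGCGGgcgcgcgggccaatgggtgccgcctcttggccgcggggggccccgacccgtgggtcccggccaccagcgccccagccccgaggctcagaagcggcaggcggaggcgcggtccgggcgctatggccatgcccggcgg

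In the NT5E window GGGCGG matched 2 times, with first bases 72 and 49 bases before the start (-72 and -49), and TGACG matched once at -127. ADORA2B held the same pair of motifs, GGGCGG 2 times and TGACG once. ENTPD2 held 8 GGGCGG matches, 1 CAGAC match at -202 and 1 TGANTCA match at -173. Among 35116 RefSeq promoter windows, GGGCGG was present in 45.0%, CAGAC in 45.3%, TGACG in 24.6%, TGACGTCA in 1.85%, ACGTG in 21.4%, CTTTGA in 12.9%, GGAATG in 14.03% and TGANTCA in 7.71%. The table matched 9 of the 10 members with 10 windows, ADK having 2, and all 10 windows held GGGCGG. The 3 printed windows were 75.0%, 80.0% and 75.7% G or C, against a median of 58.7% over all windows. These matches describe letters only.

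Levels per gene length were compared on the authors' FPKM scale. Each SD in this paragraph spans both groups unless a group is named. NT5E was the most abundant member with a mean of 73.9 ± 8.50 FPKM over the 6 libraries (SD, n = 6), rank 832 of the 20345 genes. By group, NT5E had 80.7 ± 3.89 FPKM in controls and 67.0 ± 4.81 FPKM in LRRC8A shRNA libraries (SD, n = 3 each). Next came ADK (34.7 ± 3.89 FPKM), ADORA2B (23.2 ± 1.17 FPKM) and PANX1 (17.5 ± 0.974 FPKM). A gap of 6.24-fold separated PANX1 from ADA (2.80 ± 0.348 FPKM), which was followed by ENTPD2 (2.25 ± 0.460 FPKM), ADORA1 (0.799 ± 0.187 FPKM) and ENTPD8 (0.521 ± 0.154 FPKM). P2RY2 (0.225 ± 0.0503 FPKM) and ENTPD3 (0.0745 ± 0.0405 FPKM) were lowest. Between neighbours in this order, the 6 values of ADA and ENTPD2 overlapped, as did those of ADORA1 and ENTPD8. All other neighbours lay apart in every library.

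**Figure D1:**
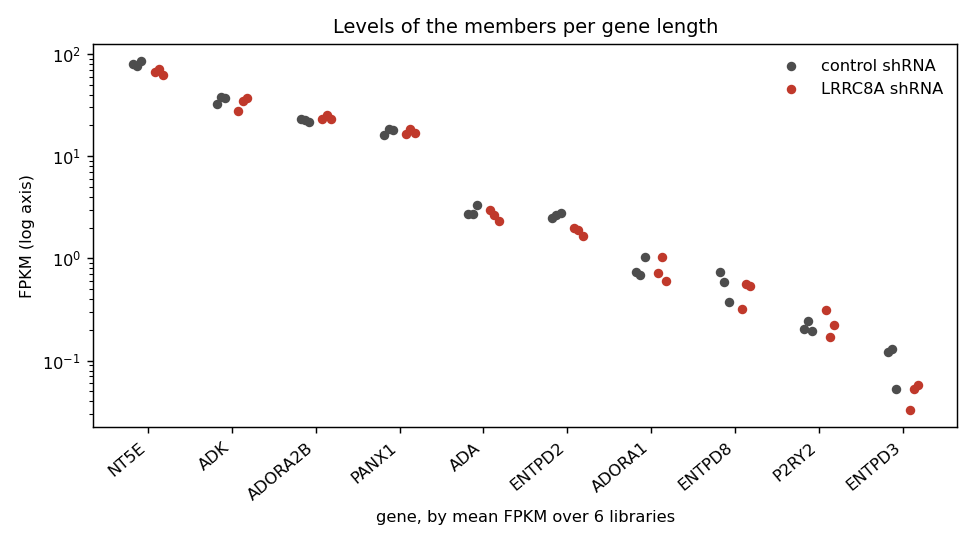
FPKM of the 10 members on a log axis, ordered by their mean over the 6 libraries; each point is 1 library, grey for control shRNA and red for LRRC8A shRNA. NT5E lies highest, from 62.6 to 84.7 FPKM, and ENTPD3 lowest, from 0.0328 to 0.129 FPKM.

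Of the 10 members, 9 passed the filter on low counts and were tested, and ENTPD3 did not. NT5E and ENTPD2 fell in the LRRC8A shRNA libraries, 0 rose (both counts over 9 tested members), and 7 did not pass (edgeR, Benjamini-Hochberg over 13551 genes, adjusted p under 0.05). Across all tested genes 4.35% passed, with 2.58% lower and 1.77% higher. The median log2 fold change was -0.16 over the 9 tested members and 0.00 over all tested genes. The CPM values of the 2 groups did not overlap for 2 of the 9, NT5E and ENTPD2, both with the LRRC8A shRNA group lower. Over all tested genes the groups lay apart in 23.6%, and in 12.2% with that group lower. Earlier results of these data were known when the members were chosen, so these comparisons are not independent of that choice.

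NT5E mRNA (ENSG00000135318; GRCh38, GENCODE 29, chromosome 6, 85449584 to 85495791, plus strand) stood at 324.2, 311.6 and 341.2 CPM in control replicates 1 to 3. The LRRC8A shRNA replicates had 260.5, 285.8 and 249.1 CPM. Each LRRC8A shRNA library was below each control library, with replicate 2 the nearest. The group means were 325.6 ± 14.9 and 265.2 ± 18.8 CPM (SD, n = 3 each). The log2 fold change was -0.30 (SE 0.05, edgeR adjusted p = 0.00256). NT5E thus decreased by 18.6%, with a 95% confidence interval of -24.4% to -12.3%. It passed in all 6 fits that left out 1 library, with log2 fold changes of -0.35 to -0.25. On FPKM values limma gave a log2 fold change of -0.27 and an adjusted p = 0.0576, which did not pass; limma called 1.62% of the genes it tested. In RNA from whole cultures, fewer cells that express a gene and less of its RNA per cell cannot be told apart. No other annotated gene overlapped NT5E.

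ENTPD2, which hydrolyses ATP in preference to ADP, is transcribed from chromosome 9 (GRCh38, 137048098 to 137054045, minus strand; ENSG00000054179). It had 5.93, 6.25 and 6.51 CPM in the controls and 4.63, 4.60 and 4.01 CPM in the LRRC8A shRNA libraries. The groups did not overlap. The log2 fold change of ENTPD2 was -0.50 (SE 0.14, edgeR adjusted p = 0.0421), from 6.23 ± 0.287 to 4.41 ± 0.352 CPM (SD, n = 3 each). The decrease was 29.1%, with a 95% confidence interval of -41.7% to -13.8%. With 150 to 242 counts per library, this call lay near the threshold, and leaving out any 1 of the 6 libraries ended it (0 of 6 passed, edgeR adjusted p from 0.0691 to 0.136). Limma on FPKM values gave an adjusted p = 0.0638. DESeq2, which called 5.8% of its genes, gave 0.0331, and edgeR with the replicate number as a term, which called 4.95%, gave 0.0615.

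ENTPD8 and ENTPD3, the other nucleoside triphosphate diphosphohydrolases of the set, had low counts. ENTPD8 had 45 to 74 counts in controls and 45 to 56 in LRRC8A shRNA libraries (chromosome 9, 137434364 to 137441816). Its groups overlapped, with a log2 fold change of -0.27 and a 95% confidence interval of -0.84 to 0.30 (edgeR adjusted p = 0.655). The estimate ran from -0.43 to -0.07 with 1 library left out, nearest 0 without control replicate 1. ENTPD3 had 15, 16 and 7 counts in the controls and 3, 7 and 8 in the LRRC8A shRNA libraries (chromosome 3, 40387156 to 40428744). Fitted without the filter, ENTPD3 had a log2 fold change of -1.13 (SE 0.70, edgeR adjusted p = 0.471). ENTPD8 shares 43 exonic bases with NOXA1, and ENTPD3 shares 128 with ENTPD3-AS1, both on the opposite strand, and the strand setting of the counting is not given in the sources used here.

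NT5E made up nearly all of the FPKM measured over the 4 ecto-nucleotidase members. Its share was 96.0%, 95.8% and 96.3% in control replicates 1 to 3 and 96.6%, 96.6% and 96.5% in LRRC8A shRNA replicates 1 to 3. The share was higher in each LRRC8A shRNA library, by 0.535 percentage points on average (0.276 on the CPM scale, which is not per length). An exact two-sided permutation test returned p = 0.1, and no smaller value is possible with groups of 3. The fold changes of NT5E and ENTPD2 were not tested against each other. Summed FPKM of ENTPD2, ENTPD3 and ENTPD8 was 3.24 to 3.39 in controls and 2.26 to 2.53 in LRRC8A shRNA libraries.

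**Figure D2:**
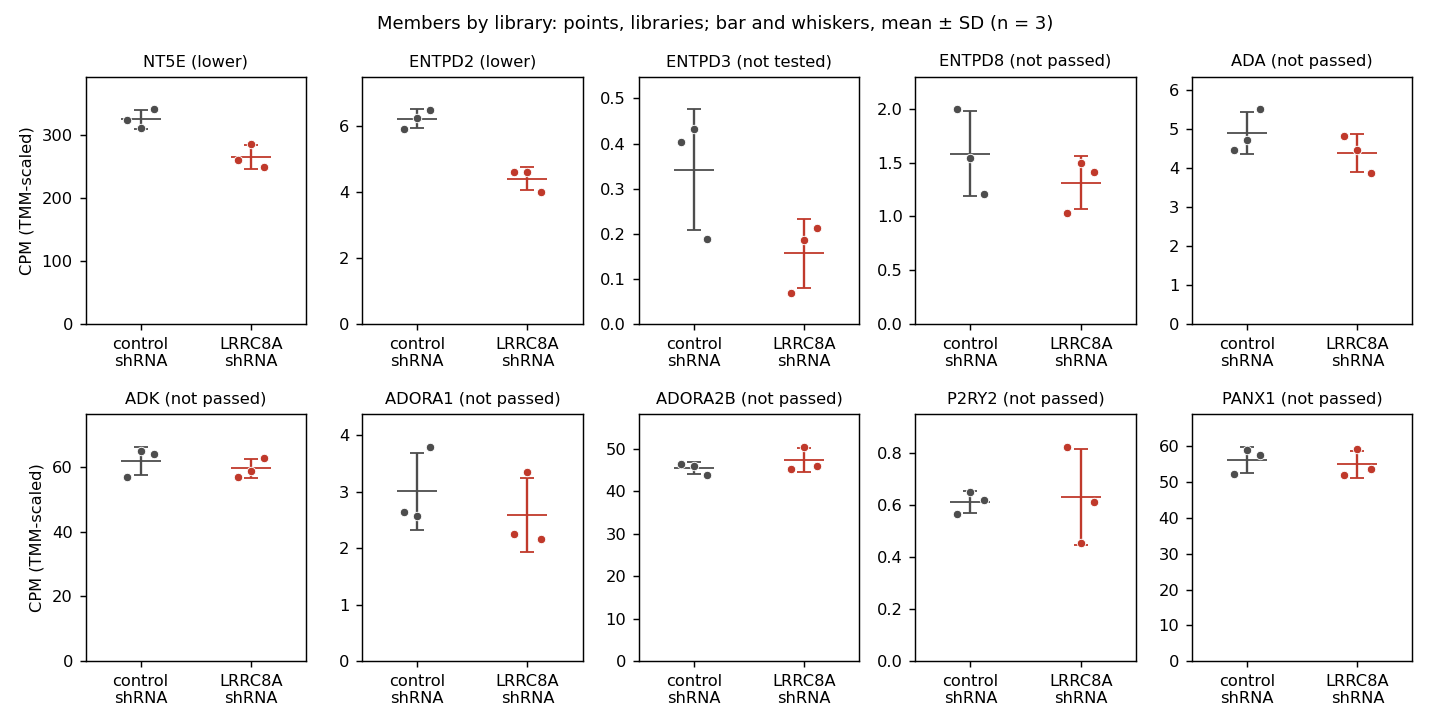
CPM of each member by group, 1 point per library, with the mean and SD of 3 libraries as bar and whiskers; each panel starts at 0 and has its own scale, and its title gives the edgeR result. NT5E and ENTPD2 are the panels in which the groups lie apart.

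The adenosine-removing enzymes did not pass the test. ADA, which deaminates adenosine to inosine, had 4.48, 4.74 and 5.51 CPM in controls and 4.84, 4.47 and 3.87 CPM in LRRC8A shRNA libraries (chromosome 20, 44619522 to 44652233). ADK, adenosine kinase, had 56.7, 64.7 and 63.9 CPM in controls and 56.9, 58.7 and 62.7 CPM in LRRC8A shRNA libraries (chromosome 10, 74151185 to 74709303). In both genes the groups overlapped. The log2 fold change was -0.16 for ADA, with a 95% confidence interval of -0.48 to 0.16 (edgeR adjusted p = 0.639). For ADK it was -0.06, with an interval of -0.18 to 0.07 (edgeR adjusted p = 0.673), so a decrease of ADK as large as the NT5E estimate lay outside its interval. ADA shares 46 exonic bases with PKIG on the opposite strand, and ADK shares 188 with a pseudogene on its own strand and 227 with an antisense gene.

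The log2 ratio of NT5E FPKM to the summed FPKM of ADA and ADK was 1.19, 0.92 and 1.06 in the controls and 1.09, 0.95 and 0.65 in the LRRC8A shRNA libraries. The values overlapped, and the mean difference of -0.16 did not pass an exact two-sided permutation test (p = 0.5). It was -0.26 without LRRC8A shRNA replicate 1 and -0.04 without LRRC8A shRNA replicate 3. The ADK FPKM of LRRC8A shRNA replicate 1, 28.0, was the lowest of the 6. Control replicate 1 had 32.5 FPKM at nearly the same depth-scaled level, 56.7 CPM against 56.9 CPM. FPKM per CPM of ADK was 0.492 in LRRC8A shRNA replicate 1 and 0.573 to 0.598 in the others. On the CPM scale, which is not per length, the difference was -0.24 (exact two-sided permutation p = 0.2).

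The receptors showed no change past the threshold. ADORA2B couples to Gs and raises cAMP at high adenosine levels. It had 46.4, 46.0 and 43.8 CPM in controls and 45.2, 50.5 and 46.0 CPM in LRRC8A shRNA libraries (chromosome 17, 15944917 to 15975746). Its log2 fold change of 0.06 had a 95% confidence interval of -0.07 to 0.18 (edgeR adjusted p = 0.671). ADORA1, which couples to Gi and lowers cAMP, had 2.64, 2.57 and 3.79 CPM in controls and 2.25, 3.34 and 2.16 CPM in LRRC8A shRNA libraries (chromosome 1, 203090654 to 203167405). Control replicate 3 and LRRC8A shRNA replicate 2 were the high libraries, and the groups overlapped. The estimate for ADORA1 was -0.22 (95% confidence interval -0.67 to 0.24, edgeR adjusted p = 0.656), and it ran from -0.44 to -0.01 with 1 library left out, nearest 0 without control replicate 3.

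P2RY2, a Gq-coupled receptor for ATP and UTP, had 21, 24 and 23 counts in controls and 36, 17 and 23 in LRRC8A shRNA libraries (chromosome 11, 73218298 to 73236352). LRRC8A shRNA replicates 1 and 2 were the highest and the lowest of the 6. At this depth its log2 fold change of 0.05 had a 95% confidence interval of -0.68 to 0.79 (edgeR adjusted p = 0.961), so a change of moderate size was not detectable. The log2 ratio of ADORA2B to ADORA1 FPKM was 4.39 to 5.07 in controls and 4.62 to 5.28 in LRRC8A shRNA libraries. Its mean difference of 0.16 did not pass (exact two-sided permutation p = 0.6) and was -0.05 without control replicate 3. ADORA1 shares 354 exonic bases with an antisense gene.

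PANX1 was the only ATP release channel of the set (chromosome 11, 94128928 to 94181972). It had 52.0, 58.9 and 57.4 CPM in controls and 51.8, 59.0 and 53.6 CPM in LRRC8A shRNA libraries. The groups overlapped almost fully. The log2 fold change was -0.03 with a 95% confidence interval of -0.16 to 0.09 (edgeR adjusted p = 0.830). On the percent scale the interval ran from -10.6% to 6.72%.

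The rest of the pathway was read from 7 lists of 124 genes in all, of which 92 were tested. These lists too were chosen with earlier results known, so their shares are not independent of the choice. In them 7 genes fell, 2 rose and 83 did not pass, or 9.78% changed against 4.35% of all tested genes. At an unadjusted edgeR p under 0.05 were 20 of the 92, against 18.3% of all tested genes. By list, these were 8 of 17 cAMP and CREB response genes and 4 of 22 G proteins and effectors. Also among them were 3 of 12 ATP release genes, with LRRC8A, and 3 of 19 turnover enzymes. The rest were 2 of 11 ectonucleotidases and phosphatases, with 0 of 6 receptors and 0 of 5 nucleoside transporters. Over the 92, the groups lay apart in 12 with the LRRC8A shRNA group lower and in 12 with it higher. Over all tested genes those shares were 12.2% and 11.4%. The 7 that fell include LRRC8A, the knockdown target.

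Among 20 other genes of ATP release, GJB2 fell beside LRRC8A and 10 of 12 tested genes did not pass. Of all tested genes, 2.58% were lower. GJB2 encodes connexin 26, which forms gap junctions and hemichannels. It had 132.3, 139.4 and 122.4 CPM in controls and 104.5, 109.7 and 114.3 CPM in LRRC8A shRNA libraries, without overlap. The log2 fold change of GJB2 was -0.26 (SE 0.05, edgeR adjusted p = 0.00592). It passed in 5 of 6 fits that left out 1 library, and not without control replicate 2 (edgeR adjusted p = 0.0539). TTYH3, the next in abundance in this list, had a log2 fold change of 0.13 (edgeR adjusted p = 0.158). Whether GJB2 or TTYH3 releases ATP in these cells was not measured.

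Of 22 other enzymes of adenosine and AMP turnover, AHCY alone fell and 18 of 19 tested genes did not pass. Of all tested genes, 2.58% were lower. AHCY, which shares 139 exonic bases with another annotated gene on its own strand, splits S-adenosylhomocysteine into adenosine and homocysteine. Its level went from 251.7 ± 5.80 to 223.5 ± 5.33 CPM (SD, n = 3 each), with -0.17 as log2 fold change (SE 0.04, edgeR adjusted p = 0.0196), and it did not pass without control replicate 1, control replicate 2 or LRRC8A shRNA replicate 1 (edgeR adjusted p from 0.0829 to 0.104). The adenine salvage enzyme gene APRT had a log2 fold change of -0.09 (edgeR adjusted p = 0.346).

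None of the 11 tested genes among 17 other ectonucleotidases and phosphatases passed by edgeR. At an unadjusted p under 0.05 were 2 of them, against 2475 of all 13551 tested genes (18.3%). The most abundant were the intracellular-membrane nucleotidase genes CANT1 (41.2 FPKM, log2 fold change -0.08) and ENTPD6 (32.2 FPKM, log2 fold change -0.08). ENTPD1 (CD39), the family member best known from leukocytes and endothelium and named here after its values were seen, averaged 1.71 FPKM with a log2 fold change of 0.12 (edgeR adjusted p = 0.435). Of 16 other adenosine and nucleotide receptors, 6 were tested and 0 passed by edgeR, with 0 at an unadjusted p under 0.05, a number too small to set against the 18.3% of all genes. P2RY11 (14.4 FPKM, log2 fold change -0.10), which also lies in a read-through transcript with its neighbour PPAN, and the ion channel gene P2RX4 (10.6 FPKM, log2 fold change -0.06) were the most abundant. Among 7 nucleoside transporters 5 were tested and 0 passed by edgeR, again with 0 at an unadjusted p under 0.05 and with the same limit. The equilibrative transporter genes SLC29A1 and SLC29A2 had log2 fold changes of -0.01 and 0.10.

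Of 22 G proteins and effectors, all of them tested, 1 fell and 1 rose, where 2.58% of all tested genes were lower and 1.77% higher. ITPR2, an inositol trisphosphate receptor that releases calcium from the endoplasmic reticulum, fell from 77.0 ± 4.04 to 63.2 ± 6.20 CPM, with an edgeR adjusted p = 0.0191 and a log2 fold change of -0.29 (SE 0.06). ADCY7, an adenylyl cyclase, rose from 10.1 ± 1.22 to 13.001 ± 0.372 CPM, with an edgeR adjusted p = 0.0464 and a log2 fold change of 0.37 (SE 0.10). With 1 library left out, ITPR2 passed only without LRRC8A shRNA replicate 3 (edgeR adjusted p from 0.0547 to 0.101 in the other fits), and ADCY7 passed in 0 of 6 (edgeR adjusted p from 0.0588 to 0.175). ADCY7 shares 3593 exonic bases with BRD7 on the opposite strand, and ITPR2 shares 126 with a non-coding gene on its own strand. GNAS, which encodes Gs alpha, and PRKAR1A, a regulatory subunit of protein kinase A, had log2 fold changes of 0.00 and 0.04.

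In the list of 20 cAMP and CREB response genes 3 fell and 1 rose, with 17 tested. Of all tested genes, 2.58% were lower and 1.77% higher. The orphan nuclear receptor gene NR4A3 went from 35.7 ± 2.15 to 26.3 ± 3.11 CPM, with an edgeR adjusted p = 0.00445 and a log2 fold change of -0.44 (SE 0.08). AREG, which encodes an EGF receptor ligand, went from 27.5 ± 0.201 to 20.8 ± 1.73 CPM, with an edgeR adjusted p = 0.00261 and a log2 fold change of -0.41 (SE 0.07). ATF3, a stress-induced transcription factor gene, went from 37.6 ± 1.87 to 30.8 ± 0.961 CPM, with an edgeR adjusted p = 0.0103 and a log2 fold change of -0.29 (SE 0.06). CRTC2, which rose from 30.4 ± 1.90 to 36.5 ± 1.18 CPM, with an edgeR adjusted p = 0.0217 and a log2 fold change of 0.27 (SE 0.06), is a coactivator of CREB and not a target. CREM had a log2 fold change of 0.01 (edgeR adjusted p = 0.946). NR4A3 and AREG passed in all 6 fits that left out 1 library, ATF3 in 5 (edgeR adjusted p = 0.0655 without control replicate 3) and CRTC2 in 2, those without either replicate 1 (edgeR adjusted p from 0.0542 to 0.120 in the other fits). These genes answer to other signals as well, and AREG and ATF3 are commonly read as growth factor and stress genes.

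**Figure D3:**
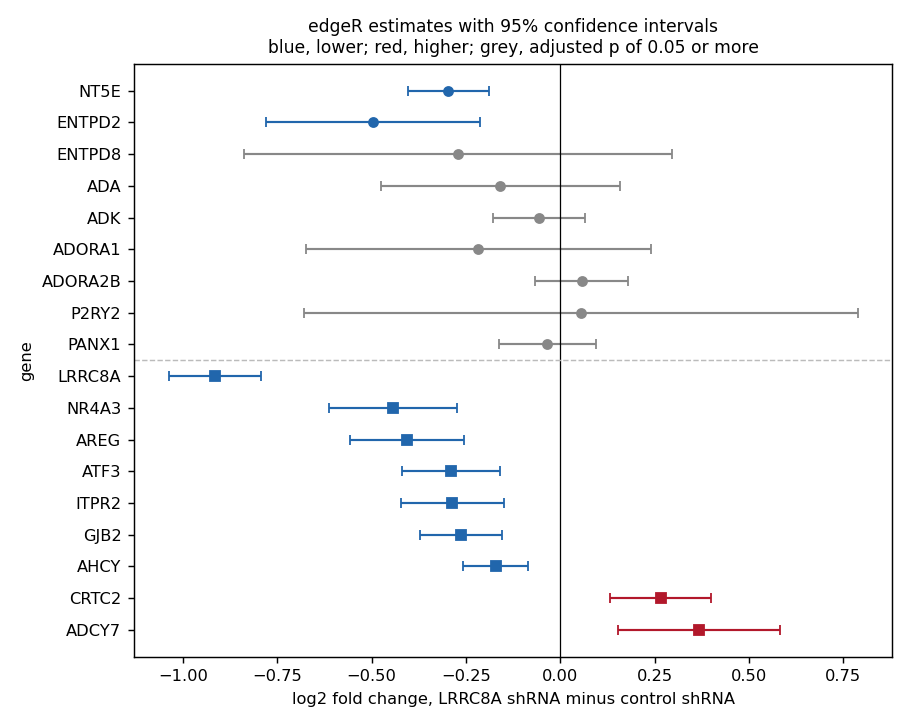
Log2 fold changes of the 9 tested members (circles, above the dashed line) and of the 9 other pathway genes that passed (squares), with 95% confidence intervals from edgeR. NT5E at -0.30 and ENTPD2 at -0.50 are the members whose points are blue; P2RY2 has the widest interval, from -0.68 to 0.79.

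The profile of NT5E over the 6 libraries was compared with those of the other 13550 tested genes by the root mean square difference of log2 CPM, each gene centred on its control mean. The nearest 5 were the simple-epithelium keratin gene KRT8 (0.0404), TMC6 (0.0429), the kallikrein peptidase gene KLK7 (0.0442), the disulfide-forming oxidase gene QSOX1 (0.0463) and the keratin gene KRT80 (0.0467). Their log2 fold changes were -0.29, -0.28, -0.34, -0.31 and -0.28, in that order, beside -0.30 for NT5E. Since the genes were picked by the closeness of their profiles, similar fold changes follow from the choice. The likeness rests on the difference between the groups and on the spread of 3 libraries in each. KRT8 shares 525 exonic bases with KRT18, and TMC6 shares 231 with TMC8, each on the opposite strand. TMC6 also shares 1342 exonic bases with TNRC6C-AS1 on its own strand, so reads of these genes may be split.

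**Figure D4:**
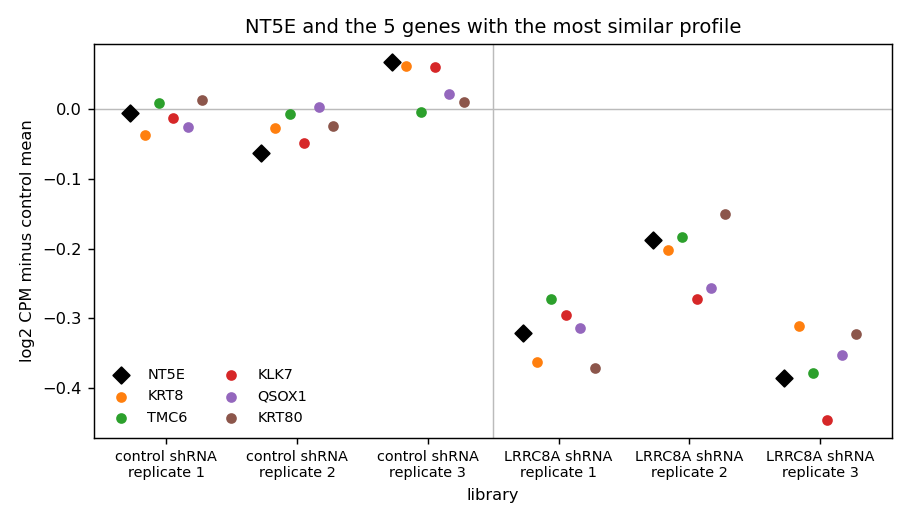
Log2 CPM minus the control mean in each library for NT5E (black diamonds) and the 5 genes with the smallest root mean square difference from it (coloured circles). All 6 genes lie below 0 in the 3 LRRC8A shRNA libraries, where NT5E is at -0.32, -0.19 and -0.39.

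NT5E is also made by fibroblasts and endothelium, so the markers of those cells were read beside it. Summed FPKM of the 10 fibroblast markers was 7.47 to 9.56 in controls and 7.09 to 9.45 in LRRC8A shRNA libraries, most of it ACTA2. Of 8 endothelium markers, 7 were found, and PECAM1 was not matched by symbol. Summed FPKM of the 7 was 1.99 to 2.36 in controls and 2.35 to 2.54 in LRRC8A shRNA libraries. Among the 7, 3 were tested and 1 had a mean of at least 1 FPKM. The ductal epithelium markers summed to 6607 to 7017 FPKM in controls and 5348 to 5852 in LRRC8A shRNA libraries. Such a sum follows its most abundant genes, and KRT8 alone had means of 6850 and 5596 CPM. The median log2 fold change of the 10 ductal markers was -0.07. In that list KRT8 and KRT18 fell and 8 of 10 did not pass, where 2.58% of all tested genes were lower; without control replicate 3, KRT8 did not pass (edgeR adjusted p = 0.0702). The 9 acinar and endocrine markers summed to 16.0 to 19.1 FPKM in controls and 10.6 to 14.9 in LRRC8A shRNA libraries, without overlap. Most of that was the trypsinogen gene PRSS1, the only one tested, with a log2 fold change of -0.40 (SE 0.12, edgeR adjusted p = 0.0798), and CELA3A, PNLIP, INS and GCG were listed at 0. The part of these shifts in the NT5E result was not tested.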

How the data were processed

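RNA-seq was analysed from 6 libraries of SW1990 cells, 3 per group. The tools listed in the submitters' processing notes are StringTie 2.2.3, HISAT2 2.2.1 and fastp 0.23.2; the notes list both GRCh38 and mm10 and give neither a role. For the counting step, tool and strand mode were not given in the sources used here; the kit marks strand, per the labels. Raw counts per gene were deposited, and beside them FPKM and TPM values that the authors had scaled for length and depth. The gene coordinates of the table equalled those of GENCODE 29 for 100 of 19511 shared genes and for 0 of the 10 members, so positions come from GENCODE 29.

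Counts were filtered (filterByExpr), scaled by TMM and tested in edgeR 4.0.16 (R 4.3.3; glmQLFit, robust, and glmQLFTest). P-values of 13551 genes were adjusted by Benjamini-Hochberg and called under 0.05. Alternatives were DESeq2 1.42.0, its size factors, no filter, a replicate block, each library left out, and limma 3.58.1 on log2(FPKM + 1) or log2(FPKM + 0.1). The edgeR, DESeq2 and limma fits were tested on simulated data with changes larger than that of NT5E. The simulation gave every gene the same dispersion. Its values for limma were depth-scaled counts without gene length, unlike the deposited FPKM. Changes as small as that of NT5E were not simulated. Genes named are the members, LRRC8A, listed pathway genes that passed, otherwise the 2 most abundant of each list and the 5 profiles nearest to NT5E. The members and lists were chosen with earlier results of these data known. Promoters are RefSeq's. TPM served as an alternative for the ratios.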

Additional observations from a re-analysis of the deposited data

How the results depend on the processing

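NT5E and LRRC8A kept their direction and passed under edgeR with DESeq2 size factors, DESeq2, no filter, the replicate block and each library left out; LRRC8A also passed by limma. The number of changed genes was 182, 179 and 16 by limma on log2(FPKM + 1), on log2(FPKM + 0.1) and without a filter on FPKM, and 246 to 504 with 1 library left out, against 590. Limma called 0 members in each of these 3 settings (NT5E and ENTPD2 had unadjusted p of 0.00108 and 0.00132 in the first) and 2, 2 and 1 other pathway genes, against 9. With 1 library left out, 1 member passed in every fit, NT5E, and 4 to 8 other pathway genes. With the replicate block 1 member passed, since ENTPD2 had an adjusted p of 0.0615. Same-numbered libraries did not deviate together (correlations of -0.01, -0.03 and -0.02 across genes for numbers 1, 2 and 3), so the numbers were not taken as pairs, and the block gave 671 changed genes. Estimates near 0 changed sign with 1 library left out, over -0.019 to 0.038 for GNAS, -0.018 to 0.063 for CREM, -0.063 to 0.047 for SLC29A1, -0.21 to 0.053 for P2RY11, -0.19 to 0.24 for P2RY2 and -0.091 to 0.0052 for PANX1. The log2 ratio of ADORA2B to ADORA1 differed by -0.046 to 0.34. The cause was not tested. Low counts limit ENTPD3, ENTPD8 and P2RY2, and ADORA1 (81 to 141 counts per library).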

Other observations

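FPKM and counts did not always move together in the deposited table. For NT5E the FPKM per CPM differed between libraries by at most 1.03-fold, and for ADK by 1.21-fold, with LRRC8A shRNA replicate 1 lowest. Among 7179 genes with a mean of at least 1000 counts the median of this ratio was 1.05-fold, and 5.54% reached that of ADK.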
